A study of Mus musculus with 12 samples.

Results

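The question here is which genes of the mouse olfactory epithelium responded differently to removal of the olfactory bulbs when macrophages had been targeted with clodronate liposomes. It is answered by a difference of differences, the response to bulb removal in clodronate-treated mice minus the response in control mice, and all 12 of the 12 arrays of the series enter it. The mice were male wild-type C57BL/6J animals aged 6 weeks. They received either liposomes loaded with clodronate (Lip-C) or empty liposomes (Lip-O), 50 µl into the nose on each of 3 consecutive days and 200 µl into a tail vein on the first and last of those days, under isoflurane. On the middle day both olfactory bulbs were removed (olfactory bulbectomy, OBX) or a sham operation was done, and the dissected epithelium was taken 48 h later. The 4 groups were thus Lip-O sham, Lip-O OBX, Lip-C sham and Lip-C OBX, with 3 arrays each. The control mice also received liposomes, so the comparison shows the effect of the clodronate they carried and not of liposomes as such. The sample titles number biological replicates but do not say how many animals each array stands for, so p-values measure only the spread between these samples. The series design names macrophage-mediated degeneration, protection and renewal of neurons as the purpose of the crossed design.

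Olfactory sensory neurons send their axons to the bulb, and when the bulb is removed they lose their target and die within days, after which basal progenitors divide and replace them. Macrophages and monocytes enter the damaged tissue, clear dead neurons and release cytokines and growth factors. Clodronate set free inside a cell that has engulfed a liposome kills that cell, which is why the liposomes are used to deplete phagocytes in the nose and in blood. The dissected tissue holds more than neurons: sustentacular and basal cells, secretory glands, ciliated respiratory epithelium at its border, ensheathing glia, vessels, connective tissue, and any bone or cartilage that stays attached.

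Signals are linear intensities scaled by the authors to the same array level, and a gene's signals are quoted below in the order of replicates 1, 2 and 3. A response is a difference of mean log2(signal + 16), and ± values on that scale are standard errors from the model. The interaction is positive where a gene's response to OBX was higher, or less negative, with Lip-C than with Lip-O. Arrays of 1 group correlated at r = 0.970 to 0.987 across genes, and the defining markers of mature olfactory neurons read at least 4249.5 on all of them. Among markers of other cell types, Bglap (bone), Myh4 (skeletal muscle), Tbr1 (olfactory bulb) and Hba-a1 (erythroid cells) did not pass the filter on dim signals. Several arrays stood apart. Lip-O sham replicate 1 had high acute phase genes, on average 2.06 above their mean on the log2 scale, against -0.857 and -1.21 in the other Lip-O sham arrays. Lip-O OBX replicate 2 lay near the sham arrays for Fkbp5, Tsc22d3, Zbtb16, Cirbp and Hsph1, and the OBX arrays numbered 3 had lower stromal signals than their partners. The ratio of 3′ to 5′ Gapdh signal, a sign of RNA quality, was 0.868 and 0.846 in Lip-C OBX replicates 1 and 2 and between 0.767 and 0.814 on the other 10 arrays, and its part in the results was not tested. Because the tissue was measured in bulk, fewer cells of a type and less RNA per cell cannot be told apart.

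Across 13628 genes, no interaction passed an adjusted p of 0.05 (limma with Benjamini-Hochberg adjustment), so 0% were called. The smallest adjusted p was 0.0747, and 223 genes lay under 0.1, of which 101 were positive and 122 negative. At an unadjusted p under 0.05 there were 1152 positive genes, 8.45% of those tested, and 1253 negative genes, 9.19%. Other fits of the same contrast did call genes: 30 with array weights, 107 with robust moderation and a variance trend, and 154 when Lip-O OBX replicate 2 was left out. All 3 of these called the same 24 genes, among them Nr4a1, Has2, Sfrp4, Fkbp5, Cirbp, Mcm9, Agap1 and Pcif1. These fits reuse the same arrays and were the 3 with the most calls, so their overlap is not independent support. The interaction is also measured less precisely than a single response, with a median standard error of 0.176 against 0.124.

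OBX itself changed many genes in both settings. In Lip-O mice 1465 genes rose (10.7%) and 1211 fell (8.89%), and in Lip-C mice 1407 rose (10.3%) and 1208 fell (8.86%). The Lip-C total of 2615 depended on single arrays. It was 846 without Lip-C OBX replicate 1 and 1045 without Lip-C OBX replicate 2, the arrays of highest Gapdh ratio, 1063 without Lip-C sham replicate 2 and 1213 without Lip-C sham replicate 3. The Lip-O total of 2676 also shrank, to 1415 when Lip-O OBX replicate 1 was dropped, to 1767 for Lip-O sham replicate 2 and to 1535 for Lip-O sham replicate 3. Counts of calls within a gene group are therefore given with their range over the 12 fits that each left out 1 array. For a single gene, "rose" or "fell" is used of an adjusted call that held in each of those 12 fits, unless a loss is named. Over all genes both responses, measured on separate arrays, correlated at r = 0.451, a description across genes that are not independent.

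The signs of both responses were also counted, as a description, since choosing genes by the difference of responses favours opposite signs and estimates near 0 are included. Among the 1152 positive genes, 723 (62.8%) had a negative response with Lip-O and a positive one with Lip-C, and 828 of the 1253 negative genes (66.1%) had the reverse signs. Over all genes tested, 4382 (32.2%) had responses of opposite sign. A stricter form of this pattern asks that the 3 OBX arrays lie wholly above the 3 sham arrays with one liposome and wholly below them with the other. It was met by 93 genes that went up with Lip-C and down with Lip-O (0.682%) and by 145 that went down with Lip-C and up with Lip-O (1.06%). With 1 array fewer the condition is easier to meet, and the counts ran from 113 to 241 and from 171 to 259, both highest without Lip-O OBX replicate 2. They were also over 1.5 times the full counts for the upward pattern without Lip-C OBX replicate 3 (152), Lip-C sham replicates 1 (157) and 2 (146) or Lip-O sham replicate 1 (212), and for the downward pattern without Lip-C OBX replicate 3 (229) or Lip-C sham replicates 1 (241) and 2 (220).

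**Figure D1:**
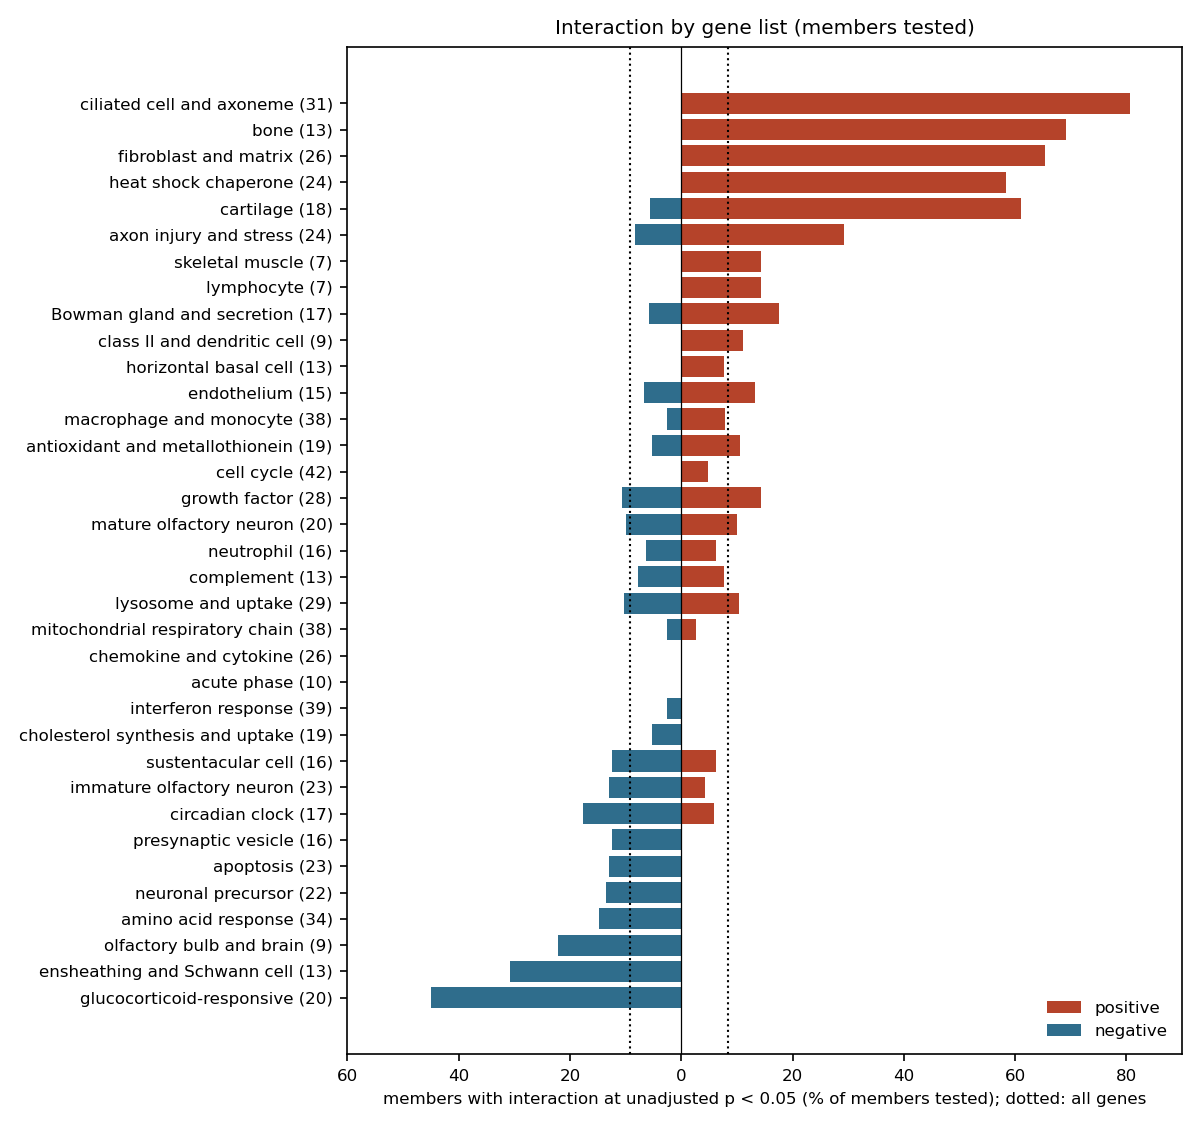
Share of each gene list's tested members, in percent, with an interaction at unadjusted p under 0.05, drawn to the right for positive and to the left for negative interactions. Numbers in brackets are members tested, lists with 7 or more are shown, and the dotted lines mark the shares over all genes, 8.45% positive and 9.19% negative. Ciliated cell, bone, fibroblast, heat shock and cartilage genes extend furthest to the right, and glucocorticoid-responsive genes furthest to the left.

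Of the lists examined, genes of motile cilia held the highest share of positive interactions. These genes build the axoneme, its dynein motors and its radial spokes, and are switched on by FOXJ1 and by RFX factors, which bind a promoter motif called the X-box. Of 31 members tested (36 listed), 25 had a positive interaction at unadjusted p under 0.05, which is 80.6% against 8.45% of all genes, and none had a negative one. The median interaction was 0.51, against -0.0021 over all genes. With Lip-O, 15 members fell after OBX and 1, Cfap43, was called up (0.39 ± 0.11), where 8.89% of all genes fell and 10.7% rose. With Lip-C, 9 rose and 3 fell, where 10.3% of all genes rose and 8.86% fell. The count that fell with Lip-O ran from 12 to 15 when 1 array was left out. The count that rose with Lip-C was less stable, at 1 without Lip-C OBX replicate 1, 2 without Lip-C OBX replicate 2 or Lip-C sham replicate 3, and 4 without Lip-C sham replicate 2. The 3 that fell with Lip-C became 1 without any one of Lip-C OBX replicates 1 and 2 or the Lip-C sham arrays.

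The promoters of a few members carry the X-box. The motif searched was an arm GTTNCC followed after 3 unspecified bases by an arm GNNAC, on both strands of the 250 bases before each annotated RefSeq start (GRCm38.p6). It was found for 4 of the 27 tested members with a promoter sequence, Hydin, Pifo, Tekt1 and Tekt4, and for 2.11% of all genes with one. The windows of the 3 members where it lies closest to the start are printed 5′ to 3′ on the gene's strand to show it, with the motif in capitals.
Tekt1, chr11:72361883-72361927, minus strand: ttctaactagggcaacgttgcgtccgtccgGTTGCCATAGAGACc
Pifo, chr3:106001498-106001547, minus strand: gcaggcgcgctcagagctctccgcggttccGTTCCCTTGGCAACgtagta
Hydin, chr8:110266926-110266976, plus strand: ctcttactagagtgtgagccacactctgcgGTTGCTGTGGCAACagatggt
In Hydin the capitals match the motif on the opposite strand. A match describes these letters and is not evidence of a bound site.

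Tekt1 encodes a tektin, a filament protein inside the axoneme's microtubules. Its signal was 1371, 1244 and 1235 in Lip-O sham and 753, 837 and 911 in Lip-O OBX, a fall of -0.62 ± 0.10 (adjusted p = 0.00335, limma). With Lip-C it was 1053, 1040 and 908 in sham mice and 1098, 1054 and 938 after OBX (0.04 ± 0.10). The Lip-O arrays separated without overlap and the Lip-C arrays overlapped, and the interaction was 0.66 ± 0.14 (adjusted p = 0.0866).

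Rsph1, a radial spoke head protein, had the same form. It fell with Lip-O from 2405, 2579 and 2295 to 1586, 1798 and 1716 (-0.51 ± 0.09, adjusted p = 0.00409, limma). With Lip-C it read 1920, 2054 and 1942 in sham and 2266, 1905 and 2139 in OBX arrays, an interaction of 0.60 ± 0.12. The outer arm dynein heavy chain Dnah11 fell with Lip-O from 863, 668 and 825 to 465, 484 and 487 (-0.69 ± 0.11), and its Lip-C response was 0.03 ± 0.11. Outside the list, the inner arm dynein Dnah7a was among the 12 positive genes of smallest p. It fell with Lip-O from 332, 339 and 360 to 197, 181 and 164 (-0.87 ± 0.08), while Lip-C arrays moved from 304, 325 and 326 to 271, 280 and 280 (-0.19 ± 0.08, adjusted p = 0.104, limma).

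Other axonemal genes had little response with Lip-O and a positive one with Lip-C. Cfap52 (-0.03 with Lip-O, 0.90 with Lip-C), Ak7 (-0.02, 0.74), Dnah5 (0.02, 0.94) and Hydin, a central pair protein (-0.06, 0.58), had this pattern. Lrrc23, a radial spoke component, read 1109, 1499 and 1369 in Lip-O sham and 1018, 1256 and 1072 in Lip-O OBX. With Lip-C it read 959, 1047 and 1022 in sham and 1717, 1612 and 1323 in OBX arrays, which did not overlap, and the interaction was 0.84 ± 0.19. In sham mice the group's median difference between Lip-C and Lip-O was -0.28, and in OBX mice it was 0.24. Foxj1, the master regulator of the program, had an interaction of 0.45 ± 0.21 (adjusted p = 0.300), with signals of 1396, 1072 and 1104 in Lip-O sham and 1030, 1022 and 798 in Lip-O OBX. Its Lip-C signals of 1131, 938 and 983 in sham and 1258, 928 and 1178 in OBX arrays overlapped. Tekt2, Cfap43, Tctex1d4 and Dnah9 had interactions between -0.05 and 0.14.

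**Figure D2:**
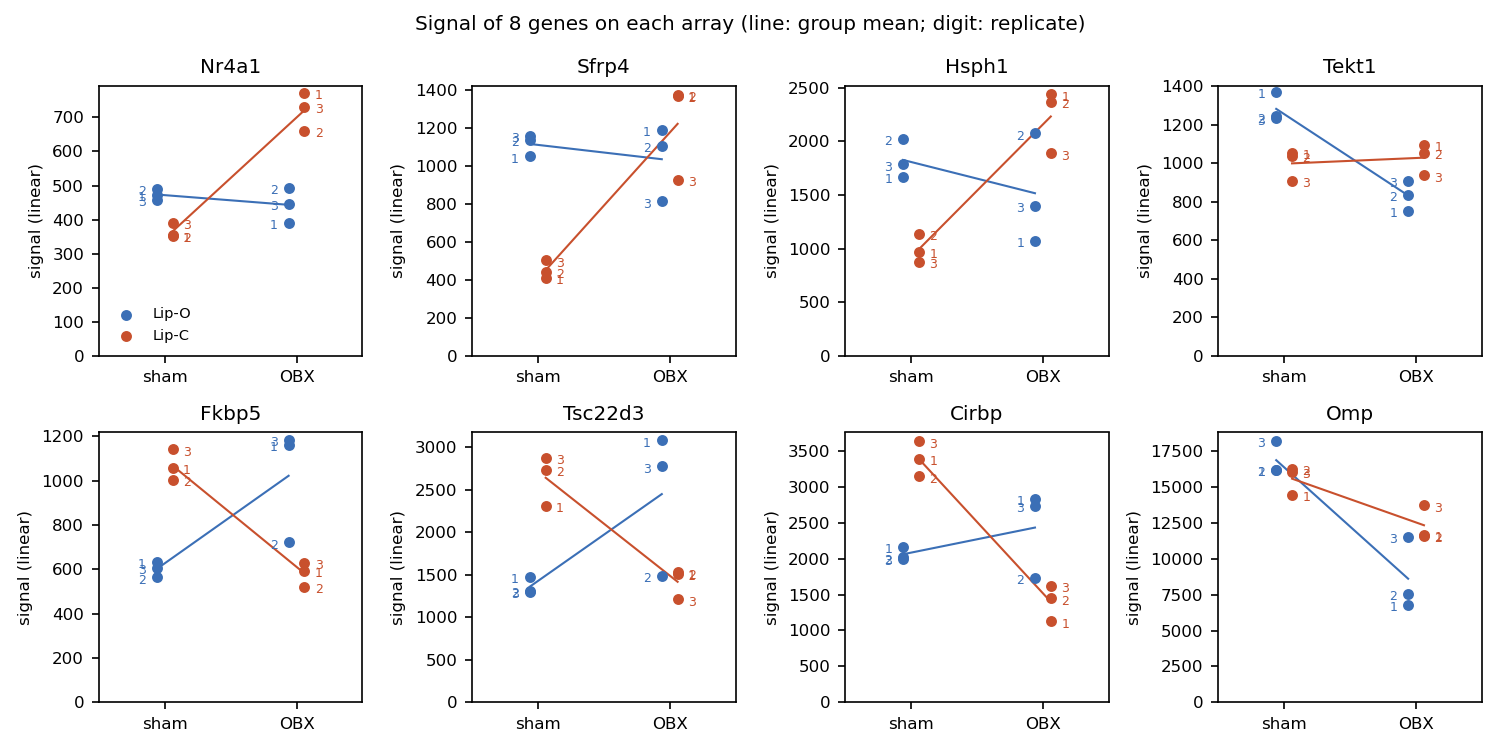
Linear signal of 8 genes on each of the 12 arrays, with blue for Lip-O, red for Lip-C, digits for replicates and lines joining group means; each vertical axis starts at 0. The lines cross or diverge: Nr4a1, Sfrp4 and Hsph1 climb with OBX in Lip-C mice, Tekt1 and Omp drop more in Lip-O mice, and Fkbp5, Tsc22d3 and Cirbp slope in opposite directions, with Lip-O OBX replicate 2 near the sham arrays for the last 3 and for Hsph1.

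Glucocorticoid-responsive genes went the other way. Adrenal steroids act through the glucocorticoid receptor, which enters the nucleus and induces a well-known set of feedback and anti-inflammatory genes. Of 20 members tested, 9 had a negative interaction at unadjusted p under 0.05 (45.0% against 9.19% of all genes) and none a positive one, and the median was -0.60. With Lip-O, 8 rose after OBX (10.7% of all genes did) and none fell. With Lip-C, none rose and 2 fell, where 10.3% of all genes rose and 8.86% fell. The 8 became 1 without Lip-O OBX replicate 1 and 2 without Lip-O OBX replicate 3, Lip-O sham replicate 2 or Lip-O sham replicate 3, and the 2 became 1 without Lip-C OBX replicates 1, 2 or 3 or Lip-C sham replicates 2 or 3. Interactions at unadjusted p under 0.05 numbered 6 to 12 in the same 12 fits, with 6 without Lip-C sham replicate 3, Lip-O OBX replicate 3 or Lip-O sham replicate 2.

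Fkbp5, an immunophilin that dampens the glucocorticoid receptor, had signals of 634, 563 and 607 in Lip-O sham and 1160, 722 and 1184 in Lip-O OBX arrays (0.72 ± 0.17, adjusted p = 0.0143, limma). That call was lost without Lip-O OBX replicate 1 and when the gene's probe sets were averaged (highest adjusted p = 0.0583). With Lip-C it fell from 1057, 1005 and 1141 to 593, 522 and 631 (-0.86 ± 0.17, adjusted p = 0.00927). All 3 OBX arrays lay above the sham arrays with Lip-O and below them with Lip-C, and the interaction was -1.58 ± 0.23, between -1.81 and -1.45 when any 1 array was left out. Its adjusted p of 0.0747 was 0.00116 without Lip-O OBX replicate 2 and at most 0.188 under any alternative.

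Tsc22d3, which encodes the glucocorticoid-induced leucine zipper protein, followed the same crossing. It read 1479, 1308 and 1297 in Lip-O sham and 3080, 1492 and 2776 in Lip-O OBX, and 2314, 2732 and 2877 in Lip-C sham and 1513, 1529 and 1212 in Lip-C OBX. The groups did not overlap within either liposome, and the interaction was -1.67 ± 0.32 (adjusted p = 0.0782, limma). Its calls with OBX, 0.78 with Lip-O and -0.89 with Lip-C, were both lost when single arrays were left out (adjusted p up to 0.135 and 0.0764). Sgk1, a kinase that controls sodium transport, read 3861, 4051 and 3620 in Lip-O sham and 4877, 4608 and 5575 in Lip-O OBX, and 5479, 4679 and 4576 in Lip-C sham against 4159, 3976 and 3997 in Lip-C OBX. It too separated in opposite directions, with an interaction of -0.66 ± 0.14.

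Zbtb16, a transcription factor strongly inducible by glucocorticoids, had 77, 62 and 98 in Lip-O sham, 324, 114 and 341 in Lip-O OBX, 170, 333 and 526 in Lip-C sham and 148, 175 and 168 in Lip-C OBX. Its interaction was -2.30 ± 0.59, or -1.39 with probe sets averaged, and the spread among Lip-C sham arrays was wide. Hif3a (-1.09 ± 0.28), Pdk4 (-1.02 ± 0.39), the clock gene Per1 (-0.64 ± 0.25), Klf9 (-0.48 ± 0.21) and Sult1a1 (-2.47 ± 0.65) completed the 9. The metallothioneins Mt1 and Mt2, Dusp1, Cdkn1a, Nfkbia and Cebpb, also on the list, had interactions between -0.34 and 0.07. The list's median difference between Lip-C and Lip-O was 0.37 in sham mice and -0.19 in OBX mice.

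The receptor binds a palindrome whose core was searched as ACANNNTGT over the same 250 bases and both strands. It was found for Sgk1, Lcn2 and Mt1 among the 17 tested members with a promoter sequence, against 6.76% of all genes. The Sgk1 window is shown because it is the only one of the 3 genes with an interaction at unadjusted p under 0.05, and the capitals mark the core at 1 of the gene's annotated starts.
Sgk1, chr10:21993674-21993742, plus strand: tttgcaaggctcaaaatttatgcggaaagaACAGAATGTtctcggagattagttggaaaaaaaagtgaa

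**Figure D3:**
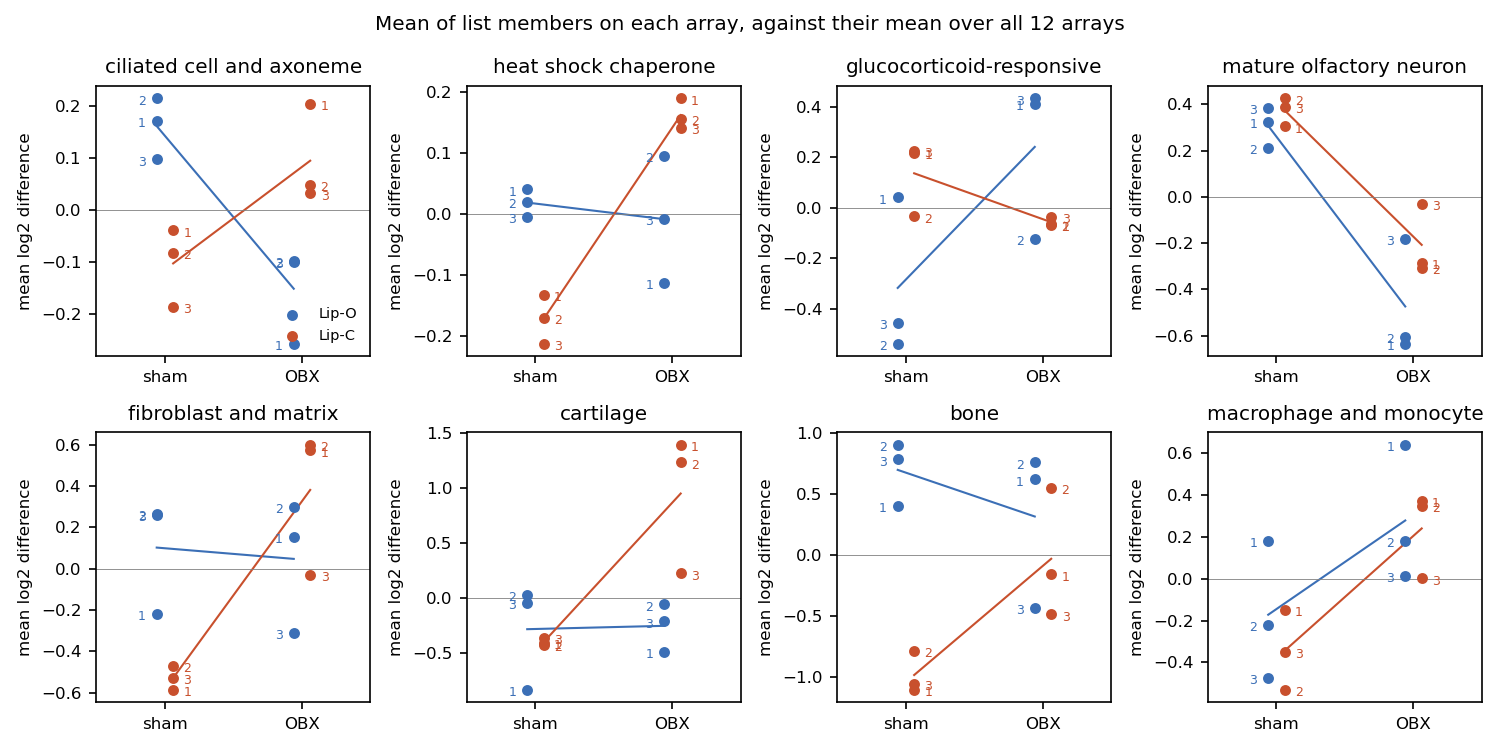
Mean log2 signal of the tested members of 8 gene lists on each array, as a difference from the same genes' mean over all 12 arrays; blue is Lip-O, red is Lip-C, digits are replicates and lines join group means. Ciliated genes drop after OBX with Lip-O, heat shock, fibroblast and cartilage genes climb with Lip-C, glucocorticoid-responsive genes cross, mature neuron genes drop with both, and macrophage genes climb with both. Vertical scales differ between panels.

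The 3 orphan nuclear receptors of the Nr4a family, immediate early genes that respond to activity, cyclic AMP and stress, rose after OBX with Lip-C and passed no test with Lip-O. Nr4a1 had the smallest interaction p of all genes. Its signal was 472, 491 and 458 in Lip-O sham and 391, 493 and 446 in Lip-O OBX (-0.10 ± 0.10). With Lip-C it rose from 352, 353 and 391 to 771, 660 and 732 (0.95 ± 0.10, adjusted p = 0.00343, limma). All 3 Lip-C OBX arrays were higher than the other 9, and the interaction of 1.05 ± 0.14 ran from 0.96 to 1.12 when 1 array was left out. Nr4a3 rose with Lip-C from 84, 94 and 91 to 443, 260 and 379 (1.80 ± 0.24), while Lip-O arrays read 129, 63 and 83 in sham and 78, 94 and 126 after OBX. Nr4a2 rose with Lip-C from 123, 120 and 100 to 422, 256 and 469 (1.57 ± 0.22), and Lip-O arrays went from 120, 123 and 149 to 123, 190 and 193 (0.31 ± 0.22). The interactions were 1.68 ± 0.34 for Nr4a3 and 1.26 ± 0.31 for Nr4a2. The Nr4a2 value rests on the brightest of 5 probe sets: the others gave -0.40, 0.56, 0.34 and 0.07, and the mean over all 5 gave 0.37. None of the 3 promoters held the cyclic AMP response element TGACGTCA within 250 bases of the start, which 1.77% of genes do.

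Axon injury and stress genes as a whole were mixed. The median of 24 tested was 0.12. At unadjusted p under 0.05, 7 had a positive interaction (29.2% against 8.45% of all genes) and 2 a negative one (8.33% against 9.19%). The positive ones were the Nr4a genes, the factors Klf4 (0.79 ± 0.27) and Egr3 (1.10 ± 0.40), and the chaperones Hspb1 and Dnajb1. The negative ones were Ccn1, a matricellular protein (-0.84 ± 0.24, and -0.35 with its probe sets averaged), and Atf3, a factor induced in injured neurons (-1.15 ± 0.45), whose response was 1.29 with Lip-O and 0.14 with Lip-C. Fos, Egr1, Junb and Ier2, other immediate early genes, had interactions between 0.00 and 0.51, and the injury gene Sprr1a had responses of 1.31 with Lip-O and 1.23 with Lip-C.

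Heat shock chaperones and their partners formed another positive group. These proteins fold clients of HSP90 and HSP70 and are induced by heat shock factor when proteins unfold. The list was written after interaction values had been seen, so its counts describe these arrays and support nothing. The median of the 24 tested was 0.37. Of these, 14 had a positive interaction at unadjusted p under 0.05 (58.3% against 8.45% of all genes) and none a negative one. For 7 of them, Hspa4l, Hikeshi, Ahsa2, Stip1, Dnaja1, Ahsa1 and Cacybp, the OBX arrays lay wholly above sham with Lip-C and wholly below it with Lip-O, where 0.682% of all genes did. With Lip-C 9 rose after OBX, where 10.3% of all genes did. That count became 4 without Lip-C OBX replicate 1 or 2 and 3 without Lip-C sham replicate 3. With Lip-O 3 rose and 3 fell, where 10.7% of all genes rose and 8.89% fell. The 3 that fell became 6 without Lip-O OBX replicate 2 and 1 without Lip-O OBX replicate 1 or any Lip-O sham array.

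Hsph1, an HSP110 protein that exchanges nucleotide on HSP70, rose with Lip-C from 971, 1136 and 875 to 2437, 2370 and 1887 (1.15 ± 0.21, adjusted p = 0.00761, limma). With Lip-O it read 1672, 2022 and 1785 in sham and 1073, 2075 and 1400 after OBX (-0.31 ± 0.21), and the interaction was 1.47 ± 0.29. The groups overlapped with Lip-O, where OBX replicate 2 was the highest array, and not with Lip-C. Hspa4l, another HSP110 family member, fell with Lip-O from 2752, 2774 and 2797 to 1657, 2122 and 2121 (-0.50 ± 0.09, adjusted p = 0.00628). Its Lip-C signals of 2180, 2185 and 2055 in sham and 2606, 2438 and 2517 in OBX arrays separated the other way (0.23 ± 0.09, adjusted p = 0.106), an interaction of 0.74 ± 0.13, or 0.43 with probe sets averaged. Ahsa2, an HSP90 co-chaperone, read 956, 1075 and 1049 in Lip-O sham, 642, 877 and 657 in Lip-O OBX, 717, 738 and 531 in Lip-C sham and 959, 1082 and 893 in Lip-C OBX, an interaction of 1.07 ± 0.21. Hsp90aa1, the inducible cytosolic HSP90, had 0.54 ± 0.17. The inducible HSP70 genes Hspa1a and Hspa1b, near-identical copies whose probes may not separate them, had -0.27 ± 0.26 and -0.17 ± 0.24, and Bag3 0.08 ± 0.13, so the group did not move as one.

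Cirbp encodes an RNA-binding protein that accumulates in mild cold and declines with heat. Its signal fell with Lip-C from 3384, 3144 and 3627 to 1128, 1445 and 1623 (-1.28 ± 0.18, adjusted p = 0.00469, limma). With Lip-O it was 2164, 2016 and 1998 in sham and 2824, 1733 and 2734 after OBX (0.20 ± 0.18), OBX replicate 2 being the lowest. The interaction was -1.48 ± 0.26, and the Lip-C sham arrays were the highest of the 12. Of 17 circadian clock genes, a list also written after values had been seen, 3 had a negative interaction at unadjusted p under 0.05, Npas2 (-0.66 ± 0.18), Per1 and Cry2 (-0.35 ± 0.14), and 1, Bhlhe40 (0.63 ± 0.23), a positive one. These were 17.6% and 5.88% of the list, against 9.19% and 8.45% of all genes.

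**Figure D4:**
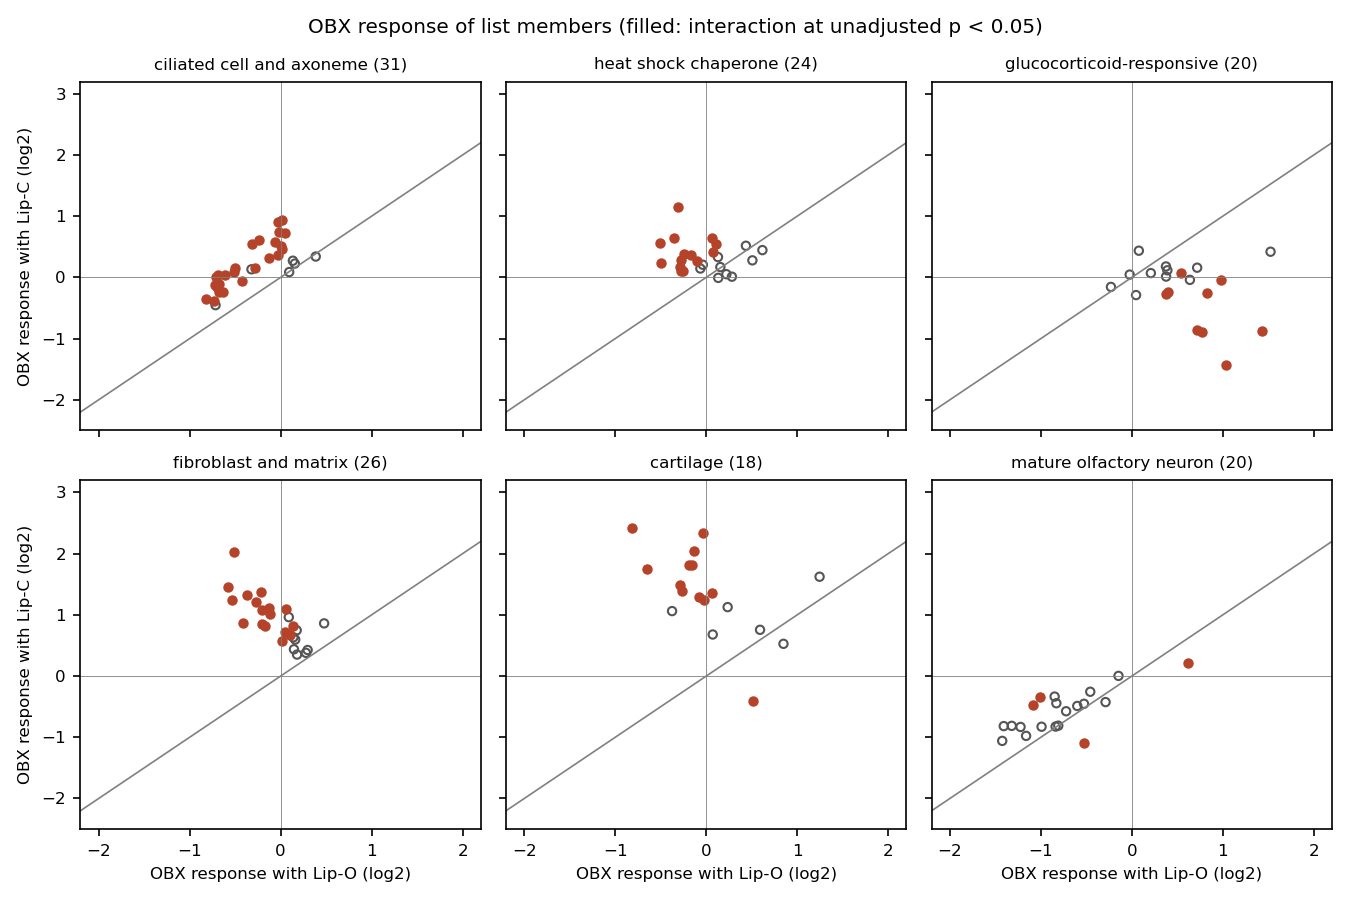
Response to OBX with Lip-O (horizontal) against that with Lip-C (vertical), both as log2 differences, for the tested members of 6 gene lists; filled points have an interaction at unadjusted p under 0.05 and the diagonal marks equal responses. Ciliated, heat shock, fibroblast and cartilage genes lie mostly above the diagonal, glucocorticoid-responsive genes mostly below it, and mature neuron genes lie in the lower left along it.

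Among lists with at least 7 genes tested, cartilage, bone and connective tissue had the largest median interactions. Of 26 fibroblast and matrix genes tested (27 listed), all 26 were positive, with a median of 0.93. Of them 17 were at unadjusted p under 0.05 (65.4% against 8.45% of all genes). With Lip-O none was called after OBX in either direction, and with Lip-C 19 rose, where 10.3% of all genes rose. That 19 became 2 without Lip-C OBX replicate 1 or 2, and dropping the Lip-C sham arrays in order gave 5, 4 and 3. Of 18 cartilage genes tested, 11 were positive at unadjusted p under 0.05 (61.1%) and 1, Cilp, negative, with a median of 1.41. With Lip-C 12 of them rose and with Lip-O 3, where 10.3% and 10.7% of all genes rose. The 12 became 2 when Lip-C OBX replicate 1 was dropped and 3 for replicate 2, and for the Lip-C sham arrays in order it became 6, 3 and 5. The cartilage genes at unadjusted p under 0.05 numbered 6 without Lip-C OBX replicate 1 or 2 or Lip-O sham replicate 2. Of 13 bone genes tested (21 listed), 9 were positive (69.2%), with a median of 1.24, and 5 remained at that p without Lip-C OBX replicate 2, Lip-C sham replicate 1, Lip-O OBX replicate 3 or Lip-O sham replicates 2 or 3.

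Col1a1, the main collagen of bone and connective tissue, read 4190, 12874 and 13406 in Lip-O sham and 7649, 10923 and 2942 in Lip-O OBX. With Lip-C it read 1308, 3379 and 2182 in sham and 10888, 12592 and 4909 after OBX, an interaction of 2.55 ± 0.85 (adjusted p = 0.169, limma). The Lip-C groups did not overlap, while the Lip-O groups did and varied widely. Another Col1a1 probe set gave a smaller interaction, 1.06. The matricellular protein Tnc read 680, 1329 and 905 in Lip-O sham, 755, 1094 and 452 in Lip-O OBX, 379, 442 and 380 in Lip-C sham and 1230, 1218 and 715 in Lip-C OBX (1.69 ± 0.46). Mfap5, a microfibril protein, rose with Lip-C from 113, 99 and 120 to 207, 265 and 174 (0.85 ± 0.17, adjusted p = 0.00981) and had -0.21 ± 0.17 with Lip-O. Sfrp4, a secreted modulator of Wnt signalling, rose with Lip-C from 411, 441 and 503 to 1368, 1373 and 925 (1.39 ± 0.17, adjusted p = 0.00445), where Lip-O arrays read 1050, 1138 and 1160 in sham and 1188, 1105 and 814 after OBX. Has2, which makes hyaluronan, rose with Lip-C from 72, 59 and 54, a mean under the arrays' 40th percentile, to 182, 161 and 134. With Lip-O it went from 266, 205 and 174 to 123, 178 and 129 (-0.53 ± 0.18, adjusted p = 0.0579), and the interaction was 1.70 ± 0.25.

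The signals of cartilage and bone genes differed between groups in distinct ways. Acan, the large proteoglycan of cartilage, stayed between 87 and 253 on the other 9 arrays and reached 1228, 996 and 342 in Lip-C OBX (interaction 2.18 ± 0.67). Chad, a cartilage leucine-rich protein, rose with Lip-C from 324, 360 and 388 to 1137, 1003 and 567 and read 384, 332 and 320 against 320, 364 and 333 with Lip-O (1.27 ± 0.29). Cartilage signals summed over the 18 genes ran from 3583 to 6258 in Lip-O sham, 4782 to 7176 in Lip-O OBX, 5033 to 6214 in Lip-C sham and 8026 to 18179 in Lip-C OBX. Bone genes were instead low in Lip-C sham: Dmp1, an osteocyte protein, read 117, 210 and 93 there, 1061, 2879 and 3065 in Lip-O sham, 2818, 2370 and 507 in Lip-O OBX and 828, 2169 and 638 in Lip-C OBX (3.32 ± 0.97). Bone signals summed over the 13 genes ran from 22018 to 23963 in Lip-O sham, 10336 to 23875 in Lip-O OBX, 6147 to 7147 in Lip-C sham and 8980 to 17307 in Lip-C OBX. The osteoclast enzyme Ctsk, also a lysosomal protease of phagocytes, read 752, 1057 and 847 in Lip-C sham and between 1138 and 5089 elsewhere. The amount of bone and cartilage left on the dissected tissue was not given in the labels, and its part in these and the fibroblast results was not tested.

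Gland genes gave the widest scatter. Lcn3 and Lcn4, odorant-carrying lipocalins, and Dmbt1, a mucosal scavenger glycoprotein, are secreted by nasal glands. Lcn4 had the largest interaction of all genes, 4.49 ± 1.40, from signals of 9310, 16290 and 21096 in Lip-O sham, 719, 7065 and 9190 in Lip-O OBX, 11499, 4015 and 945 in Lip-C sham and 24341, 21294 and 14639 in Lip-C OBX. Dmbt1 read 8953, 11977 and 15569, then 832, 4646 and 8860, then 9248, 2482 and 1255, then 20121, 16420 and 10478 in the same order of groups (4.15 ± 1.19). For both, the OBX arrays lay below sham with Lip-O and above it with Lip-C, but replicates of a group differed widely where signals were low, and no OBX response of either gene was called. Of 17 gland and secretion genes tested, 3 were positive and 1 negative at unadjusted p under 0.05, with a median of 0.16. Their shares of 17.6% and 5.88% compare with 8.45% and 9.19% of all genes. The negative one, the mucin Muc5b, rose with Lip-O from 7282, 3033 and 3125 to 12214, 8626 and 10502 (1.33 ± 0.29, adjusted p = 0.0107, limma) and had 0.25 ± 0.29 with Lip-C. The amount of gland in each dissection was not tested.

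Mature olfactory neurons were lower after OBX with both liposomes. Of 20 genes tested, 17 fell with Lip-O and 13 with Lip-C, where 8.89% and 8.86% of all genes fell. Left-out arrays gave 14 to 17 and 7 to 17, with 7 without Lip-C OBX replicates 1 or 2 or Lip-C sham replicates 2 or 3, and 8 without Lip-C sham replicate 1. The medians were -0.83 and -0.53, and the median interaction was 0.17. At unadjusted p under 0.05, 2 interactions were positive and 2 negative (10% each, near the 8.45% and 9.19% of all genes). The positive ones were Omp and Ncam2, and the negative ones Slc24a4 and Cyp2j6. Cyp2j6 had an interaction of -0.39 ± 0.13, from responses of 0.61 with Lip-O and 0.22 with Lip-C. Omp, the olfactory marker protein of mature neurons, fell with Lip-O from 16164, 16197 and 18213 to 6768, 7543 and 11517 (-1.01 ± 0.17, adjusted p = 0.00399, limma). With Lip-C it went from 14449, 16243 and 16024 to 11679, 11606 and 13706 (-0.34 ± 0.17, adjusted p = 0.176). Groups did not overlap with either liposome, all Lip-C OBX arrays lay above all Lip-O OBX arrays, and the interaction was 0.67 ± 0.24 (adjusted p = 0.191).

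Ncam2, an axonal adhesion molecule, fell with Lip-O from 1014, 966 and 1140 to 503, 573 and 383 (-1.09 ± 0.14), while with Lip-C the values were 829, 1078 and 854 in sham and 657, 657 and 658 in OBX arrays (-0.47 ± 0.14). Its interaction of 0.62 ± 0.20 was 0.24, not at unadjusted p under 0.05, when its probe sets were averaged. Slc24a4, the exchanger that clears calcium from olfactory cilia, differed the other way. It fell with Lip-C from 1043, 1024 and 1063 to 445, 400 and 618 (-1.10 ± 0.16, adjusted p = 0.00469) and read 934, 793 and 772 against 677, 516 and 534 with Lip-O (-0.53 ± 0.16), an interaction of -0.57 ± 0.22. The transduction genes Adcy3 (0.16 ± 0.31), Cnga2 (0.15 ± 0.22) and Gnal (0.07 ± 0.20) had small interactions with wide errors. The OBX arrays of lowest weight, both numbered 3, had the smallest neuron losses in their groups: the mean of the list was -0.18 in Lip-O OBX replicate 3 against -0.634 and -0.606, and -0.0298 in Lip-C OBX replicate 3 against -0.286 and -0.306.

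Of 16 synaptic vesicle genes tested, 2 had a negative interaction at unadjusted p under 0.05 (12.5%, near the 9.19% of all genes) and none a positive one. With Lip-C 10 fell and with Lip-O 6, where 8.86% and 8.89% of all genes fell. The 10 became 5 without Lip-C OBX replicate 1 and 6 without Lip-C OBX replicate 2 or Lip-C sham replicates 2 or 3. Vamp2, a vesicle fusion protein, fell with Lip-C from 2047, 1827 and 2352 to 1155, 1487 and 1376 (-0.63 ± 0.11, adjusted p = 0.00743, limma) and read 1465, 1608 and 1562 against 1373, 1463 and 1481 with Lip-O. Its interaction was -0.52 ± 0.16, but another probe set of the gene gave 0.25 and the average -0.14. Sv2a fell with Lip-C by a similar path, from 497, 599 and 644 to 251, 298 and 382 (interaction -0.67 ± 0.21).

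Precursors and immature neurons differed little in their response. Of 22 precursor genes 3 were negative at unadjusted p under 0.05 (13.6%) and none positive, and of 23 immature neuron genes 3 were negative (13.0%) and 1 positive (4.35%). Among all genes tested 9.19% were negative and 8.45% positive. St18, a zinc finger factor, rose with Lip-O from 109, 111 and 85 to 183, 188 and 194 (0.81 ± 0.17, adjusted p = 0.0107, limma), while both Lip-C groups read between 26 and 55, under the arrays' 40th percentile. Neurog1 and Neurod1, proneural factors of precursors, were low with Lip-C in both operations, at 73 to 134 and 218 to 395, against 223 to 437 and 838 to 1276 with Lip-O. Their interactions were -0.12 ± 0.21 and -0.36 ± 0.26, so a level difference between liposomes was not joined by a measured difference in response. Of 42 cell cycle genes, 38 had positive interactions, yet 2, Cks2 and Pcna, were at unadjusted p under 0.05 (4.76% against 8.45%), with a median of 0.27. After OBX 10 rose with Lip-C and none with Lip-O, where 10.3% and 10.7% of all genes rose. The 10 ran from 0 to 23 when 1 array was left out, with 0 without Lip-C OBX replicate 1 or 2 or Lip-C sham replicate 2. Mki67 had 0.16 ± 0.45, from 482 to 1202 in Lip-O sham, 981 to 1720 in Lip-O OBX, 580 to 794 in Lip-C sham and 974 to 1611 in Lip-C OBX.

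Part of the macrophage genes, which mark the cells clodronate is aimed at, rose after OBX in both settings. Of 38 tested, 8 rose with Lip-O and 14 with Lip-C (10.7% and 10.3% of all genes). The 8 became 4 without Lip-O OBX replicate 1 or Lip-O sham replicate 3, 5 without Lip-O sham replicate 2 and 13 without Lip-O sham replicate 1. The 14 became 4 without Lip-C OBX replicates 1 or 2 or Lip-C sham replicate 2, and 5 without Lip-C sham replicate 3. For the interaction 3 were positive and 1 negative at unadjusted p under 0.05 (7.89% and 2.63%), shares at or below the 8.45% and 9.19% of all genes, with a median of 0.13. Cd68, a lysosomal protein of macrophages, rose with Lip-O from 566, 387 and 324 to 1312, 989 and 656 (1.16 ± 0.25) and with Lip-C from 419, 326 and 307 to 1018, 1102 and 851 (1.46 ± 0.25). The complement genes C1qa, C1qb and C1qc, made by macrophages, had interactions between -0.06 and 0.12. Csf1r, the receptor that sustains macrophages, read 2231, 2589 and 2328 in Lip-O sham and 3413, 2754 and 2176 after OBX, and 1474, 1210 and 1310 in Lip-C sham against 2381, 2657 and 1794 after OBX (0.55 ± 0.25, adjusted p = 0.282, limma). Its interaction was at unadjusted p under 0.05 in 3 of the 12 fits that left out an array, and it was 0.24 with probe sets averaged. Aif1, a cytoskeletal protein of macrophages, rose with Lip-C from 120, 102 and 109 to 286, 307 and 203 and read 276, 219 and 176 against 409, 296 and 274 with Lip-O (0.62 ± 0.28). In both genes the Lip-C sham arrays were the lowest of all 12. The summed macrophage signal ran from 21026 to 35810 in Lip-O sham, 29642 to 48079 in Lip-O OBX, 20955 to 29493 in Lip-C sham and 29722 to 39327 in Lip-C OBX, so the ranges of the liposomes overlapped for both operations.

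Inflammatory lists gave no distinct difference in response. None of 26 chemokine and cytokine genes and none of 10 acute phase genes was at unadjusted p under 0.05. Of 39 interferon response genes 27 were negative and 1, the antiviral GTPase Mx1, was at that p (2.56% against 9.19%). Mx1 read 173, 57 and 58 in Lip-O sham, 174, 121 and 154 in Lip-O OBX, 154, 109 and 143 in Lip-C sham and 97, 94 and 61 in Lip-C OBX (-1.31 ± 0.46). Single arrays weighed heavily here. The acute phase protein Lcn2 was at 19901 in Lip-O sham replicate 1 and at 3636 and 2404 in the other Lip-O sham arrays, and its interaction was -1.11 ± 0.93. Without that array the acute phase median moved from -0.63 to -1.39 and the chemokine median from 0.16 to -0.42. Other arrays moved them the other way: without Lip-O sham replicate 3 they were 0.05 and 0.51. The acute phase median was -0.15 without Lip-O OBX replicate 1. Among 13 complement genes tested, 1 was positive and 1 negative at unadjusted p under 0.05. These were 7.69% each, below the 8.45% and 9.19% of all genes. They were the regulators Cd55 (0.95 ± 0.22) and Cd59a (-0.64 ± 0.15), with interactions of opposite sign. Cd59a rose with Lip-O from 462, 521 and 512 to 893, 837 and 968 and had 0.19 ± 0.11 with Lip-C. Lysosome and uptake genes rose in 14 of 29 cases with Lip-O and 16 with Lip-C, where 10.7% and 10.3% of all genes rose. Their interactions at unadjusted p under 0.05 were 3 positive and 3 negative (10.3% each, near the 8.45% and 9.19% of all genes). The 14 became 8 without Lip-O OBX replicate 1 or Lip-O sham replicate 3, and the 16 became 6 without Lip-C OBX replicates 1 or 2 or Lip-C sham replicate 2 and 7 without Lip-C sham replicate 3.

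Some genes of nerve-associated glia had negative interactions. Of 13 ensheathing and Schwann cell genes, 4 were negative at unadjusted p under 0.05 (30.8% against 9.19%) and none positive. With Lip-O 6 rose, among them Cdh19, an adhesion molecule of Schwann cell precursors, from 464, 357 and 348 to 850, 658 and 956 (1.04 ± 0.19, adjusted p = 0.00517, limma). Its Lip-C arrays read 726, 473 and 744 in sham and 612, 590 and 568 after OBX, and the interaction was -1.14 ± 0.26. Sox10, the glial lineage factor, rose with Lip-O from 233, 298 and 356 to 687, 580 and 749 (1.15 ± 0.19, lost when probe sets were averaged, adjusted p = 0.0613) and had 538, 373 and 389 against 700, 677 and 509 with Lip-C, an interaction of -0.63 ± 0.27 that was -0.08 when probe sets were averaged. Erbb3, the neuregulin receptor of these cells, rose with both (0.71 and 0.44). The 6 became 3 without Lip-O OBX replicate 1 or Lip-O sham replicates 1 or 2. Of the 13 genes, 5 rose with Lip-C. That count became 1 without Lip-C OBX replicate 1 or Lip-C sham replicates 2 or 3, and 2 without Lip-C OBX replicate 2. Over all genes 10.7% rose with Lip-O and 10.3% with Lip-C. Reln, a secreted guidance protein also expressed by ensheathing glia, was listed here with olfactory bulb and brain genes. It rose with Lip-O from 492, 366 and 414 to 949, 728 and 984 and had 724, 552 and 664 against 800, 811 and 593 with Lip-C (-0.86 ± 0.24). Of 9 genes tested in that list, 2 were negative at unadjusted p under 0.05 (22.2% against 9.19% of all genes) and none positive.

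Alb, Ttr and Ahsg, transcripts typical of liver, were highest in Lip-O OBX. Alb, serum albumin, read 527, 1184 and 151 in Lip-O OBX and at most 52 on the other 9 arrays, under the arrays' 40th percentile of 71.7. Ttr, transthyretin, which the choroid plexus of the brain also makes, read 173, 372 and 100 there and at most 44 elsewhere, and Ahsg, a serum glycoprotein, read 168, 118 and 119 there and at most 95 elsewhere. Of 12 liver transcripts on the array, 6 passed the filter on dim signals. Alb, Ttr and Serpina1b had means under that percentile in the other 3 groups and so passed only through Lip-O OBX, where they were high, and no count over the list is given. The source of these signals was not tested.

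Amino acid response genes, which the kinase GCN2 and the factor ATF4 switch on when amino acids run short, had 5 of 34 at unadjusted p under 0.05 in the negative direction (14.7%) and none positive. The shares of all genes were 9.19% negative and 8.45% positive. Slc7a5, the large neutral amino acid transporter, read 1485, 1416 and 1578 in Lip-O sham, 1690, 1782 and 1866 in Lip-O OBX, 2186, 2439 and 2159 in Lip-C sham and 1634, 1865 and 1757 in Lip-C OBX. It separated upward with Lip-O and downward with Lip-C (-0.62 ± 0.12, adjusted p = 0.0776, limma). Chac1, a glutathione-degrading target of the same pathway, was 204 to 308 in all Lip-O arrays and 526 to 791 in all Lip-C arrays, with an interaction of -0.40 ± 0.24. Growth factors had 4 positive and 3 negative of 28 (14.3% and 10.7%, against 8.45% and 9.19% of all genes). Vegfc, which drives lymphatic growth, had 1.04 ± 0.30 by 1 probe set, 0.02 and 0.21 by the others and 0.42 on average, and Tgfb2 (-0.58 ± 0.19) rose with Lip-O from 462, 538 and 489 to 890, 923 and 700. Among sustentacular genes the mucin Muc2 rose with Lip-O from 5565, 5100 and 4904 to 9893, 8373 and 7934 (0.74 ± 0.09, adjusted p = 0.00138) and had 0.26 ± 0.09 with Lip-C, an interaction of -0.49 ± 0.13. The sustentacular list of 16 tested genes had 1 positive and 2 negative interactions at unadjusted p under 0.05. These were 6.25% and 12.5%, against 8.45% and 9.19% of all genes. Cyp2g1, the abundant sustentacular cytochrome, had 0.19 ± 0.11, and the basal keratins Krt14 and Krt5 had 0.65 ± 0.23 and 0.33 ± 0.23. Trp63, another basal cell marker, had -0.24. Of 13 horizontal basal cell genes tested, 8 were positive and 5 negative, with a median of 0.14. Only 1 was at unadjusted p under 0.05, in the positive direction (7.69%, against 8.45% of all genes).

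Of the genes with the smallest p that belong to none of these groups, several crossed. Inpp1, an inositol phosphate phosphatase, fell with Lip-O from 300, 280 and 294 to 216, 224 and 222, and read 235, 198 and 212 against 306, 269 and 259 with Lip-C (0.72 ± 0.12). Agap1, an Arf GTPase-activating protein, read 617, 615 and 618 in Lip-O sham and 843, 813 and 773 in Lip-O OBX, and 797, 922 and 884 in Lip-C sham and 691, 668 and 718 in Lip-C OBX (-0.70 ± 0.10). That value comes from 1 of 3 probe sets, the others gave 0.05 and -0.23, and the average of -0.29 was not at unadjusted p under 0.05. Pcif1, the cap-adenosine methyltransferase, fell with Lip-C from 448, 494 and 510 to 342, 338 and 315, while Lip-O arrays moved from 303, 346 and 319 to 424, 396 and 367 (-0.80 ± 0.12). Others differed in 1 setting: Mcm9, a DNA repair helicase, fell with Lip-C from 779, 965 and 901 to 437, 449 and 463 and read 640, 525 and 599 against 621, 534 and 669 with Lip-O (-0.99 ± 0.16). Another Mcm9 probe set gave an interaction of -0.34, not at unadjusted p under 0.05. The mitochondrial carrier Slc25a35 rose with Lip-O from 3003, 2915 and 2939 to 5368, 4388 and 5577 and had -0.21 with Lip-C (-0.99 ± 0.17).

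Genes with a shared response to OBX were also compared. Averaged over both liposomes, 2613 genes rose (19.2%) and 1846 fell (13.5%). Among those that rose, 226 (8.65%) had a positive and 321 (12.3%) a negative interaction at unadjusted p under 0.05, and among those that fell 200 (10.8%) had a positive and 147 (7.96%) a negative one. All genes tested gave shares not far from these, 8.45% positive and 9.19% negative. Negative interaction in a gene that rose, and positive in one that fell, mean a smaller response with Lip-C, and the median interactions of -0.02 and 0.02 put the typical size of that difference close to 0.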

How the data were processed

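Biotin-labelled cRNA of microdissected epithelium was hybridised to Affymetrix mouse arrays, per the labels' protocols. The deposited values are linear signal intensities, which the authors had scaled so that the mean of each array, trimmed by 2% at each end, is 500; for the algorithm that summarised probes, the sources used here give none. From the deposited intensities, log2(signal + 16) was computed. After 64 control probe sets were left out, 28986 of 45101 probe sets were kept, each above the 40th percentile of the array for 3 or more arrays. Of all probe sets 34945 had 1 gene symbol, 932 several and 9160 none; the brightest probe set stood for a gene, giving 13628 genes. limma 3.58.1 in R 4.3.3 fitted the means of the 4 groups with 8 residual degrees of freedom, and two-sided p-values were adjusted by Benjamini-Hochberg over all genes at 0.05. The fit was tested on simulated data. Array number, 3 a group, limits the precision.

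Members and gene lists were chosen with earlier results of these data known. Beside 36 lists, 3 (heat shock, cold-inducible, clock) were written after interaction values had been seen. Genes were named by rule: the 12 positive and 12 negative interactions of smallest p with a group mean above the arrays' 40th percentile, up to 4 genes of smallest p in a list, 6 a direction among genes with a shared OBX response, and reference genes whatever their value. Further list members are named as examples, chosen after their values were seen. Alternatives covered the pseudocount, filter, scaling, probe set choice, replicate block, array weights, variance moderation and leaving out each array. Promoter windows come from RefSeq (GRCm38.p6).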

Additional observations from a re-analysis of the deposited data

How the results depend on the processing

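The count of interactions past an adjusted p of 0.05, which was 0, became 1 with no filter, 10 with every probe set tested, 30 with array weights and 107 with robust moderation and a variance trend (limma). It ran from 0 to 154 when 1 array was left out, with 154 without Lip-O OBX replicate 2, 3 without Lip-C OBX replicate 3 and 0 for the other arrays. Without both OBX arrays of lowest weight, an alternative chosen after seeing the data, it was 1, the opposite patterns numbered 203 and 307, and glucocorticoid-responsive genes at unadjusted p under 0.05 numbered 6. With every probe set, counts rose with the number of features: 2772 positive and 2519 negative at unadjusted p under 0.05, 4890 called with OBX for Lip-O and 3805 for Lip-C, 7499 by the shared response, and 257 and 302 with opposite responses. OBX calls in Lip-C mice were 1736 with no filter and 4058 with array weights, and bone genes numbered 5 without moderation. When 1 array was left out, positive interactions at unadjusted p under 0.05 ran from 900 to 1330 and negative ones from 993 to 1309. The same fits gave 1415 to 2785 OBX calls in Lip-O mice, 846 to 3037 in Lip-C mice and 3467 to 4678 by the shared response. Opposite patterns ran from 113 to 241 and 171 to 259, and list members at unadjusted p under 0.05 from 6 to 13 for cartilage, 5 to 10 for bone, 14 to 22 for fibroblast, 18 to 23 for ciliated, 6 to 12 for glucocorticoid-responsive and 13 to 15 for heat shock genes. Signs turned for Dcx (0.12) and Cplx2 (0.27) with a gene's probe sets averaged. Prima1, a dim gene, reached 0.41 without the OBX arrays of lowest weight and ranged from -1.87 to 0.40 over single arrays; there another probe set stood for the gene. The other causes were not tested. Of the counts over all genes and of list members by interaction compared across alternatives, 288 stayed within 1.5 times the reported one and 42 did not. Of the counts of list members called with OBX, 461 stayed within that range and 114 did not.

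The labels do not say that a replicate number marks a shared batch, and the pairing of samples was not used in the reported fit, because 11 of 18 same-numbered pairs, not all, had deviations correlated over 0.1 (range -0.0285 to 0.327). That 9 of 12 arrays correlated best with their own number is a hint from the data of variation shared by number. With the number as a replicate block, 0 interactions were called, 1307 positive and 1362 negative ones were at unadjusted p under 0.05, and 2971 genes were called with OBX for Lip-O and 2997 for Lip-C. The block moved the macrophage genes that rose with Lip-O from 8 to 13 and the cell cycle genes that rose with Lip-C from 10 to 23. It moved no other count of members given in the report by over 1.5 times.

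The limits are few arrays, a contrast with a larger error than a single response, dim groups whose fold changes are understated, and signals of gland, bone and cartilage that differed between samples. No sample's dissection can be checked beyond its marker signals.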
